A study of Mus musculus with 18 samples.

Results

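The comparison described here sets cortex of Dp16_2xIFNRs mice against cortex of Dp16 mice across all expressed genes. Its members are the 12 libraries, of 18 in the series, whose labels give one of these genotypes, 6 of each, and the remaining 6 libraries are from wild-type C57BL/6J mice (WT). Dp16 is a mouse model of trisomy 21 in which a large piece of chromosome 16 is duplicated, giving its genes 3 copies. Dp16_2xIFNRs mice keep that duplication except for the interferon receptor cluster within it, which has the normal 2 copies. By genotype, both groups compared therefore share the duplication and differ in the third copy of the receptor cluster. They also differ in part in the numbers of their sample identifiers, described below. Each group held 3 males and 3 females with no treatment in the labels, aged 17.1 to 18.0 weeks in WT and in Dp16 and 17.7 to 18.0 weeks in Dp16_2xIFNRs. Not stated in the labels are how the receptor copies were returned to 2, the strain background of the mice with the duplication, and whether animals were pooled. The question put to the data was what the extra receptor copy does to the cortical transcriptome, and how large an effect on each gene the libraries can exclude.

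Interferons are secreted proteins that announce infection to neighbouring cells. Type I interferons bind a receptor made of IFNAR1 and IFNAR2, interferon gamma binds IFNGR1 with IFNGR2, and IL-10RB is the shared second chain for IL-10, IL-22 and the lambda interferons. Bound receptors activate JAK kinases, which phosphorylate STAT proteins, and these enter the nucleus and switch on interferon-stimulated genes, many of which act against viruses or present antigen. Mouse Ifnar1, Ifnar2, Il10rb and Ifngr2 lie side by side on chromosome 16.

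Depth ran from 46346019 to 67281449 counts per library over the 18 libraries. A gene entered the test on its counts in any of the 3 groups, which left 18717 of 55385 genes. The first 3 principal components held 24.5%, 18.2% and 8.75% of the variance, and the lowest median correlation of a library with the others was 0.987. Cortical markers were present in both groups: Slc17a7, the vesicular glutamate transporter of cortical excitatory neurons, had a median of 1448 CPM in Dp16 and 1383 CPM in Dp16_2xIFNRs. Striatal markers varied within both groups: Drd1 ran from 14.5 to 34.3, Drd2 from 8.93 to 41.5 and Adora2a from 17.7 to 60.7 CPM in Dp16. In Dp16_2xIFNRs the same genes ran from 13.8 to 45.5, 8.42 to 58.3 and 15.3 to 86.8 CPM. CPM, the usual per-library scale, is the gene's count relative to the total of its library after adjustment of that total by the TMM method. P-values rest on the spread between the samples within all 3 groups, moderated across genes.

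The 4 receptor transcripts were the only ones to pass the test. All were lower in Dp16_2xIFNRs than in Dp16, by a factor near the ratio of the gene copies, 2 to 3 or 0.667, and no gene rose. At an adjusted p (edgeR quasi-likelihood test with Benjamini-Hochberg adjustment over all genes) under 0.05, 4 of 18717 genes (0.0214%) were called, and these were Ifnar2, Il10rb, Ifnar1 and Ifngr2.

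Ifnar2 encodes the chain of the type I receptor that binds interferon most tightly. Its lowest, median and highest levels were 20.2, 21.8 and 23.2 CPM in the 6 Dp16 libraries and 13.7, 14.7 and 15.5 CPM in the 6 Dp16_2xIFNRs libraries. The groups did not overlap, and the difference was -0.58 on the log2 scale (SE 0.0625, adjusted p = 9.06e-05), a ratio of 0.671 (95% interval 0.613 to 0.735). Ifnar1, the other chain of that receptor, ran from 61.9 through a median of 65.3 to 65.6 CPM in Dp16 and from 44.1 through 45.6 to 47.2 CPM in Dp16_2xIFNRs. Every Dp16 library was again above every Dp16_2xIFNRs library, with a log2 difference of -0.50 (SE 0.0446, adjusted p = 5.2e-06) and a ratio of 0.708 (0.664 to 0.755).

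Ifngr2, the signalling chain of the interferon gamma receptor, ran from 56.7 through 62.8 to 64.0 CPM in Dp16 and from 37.5 through 42.3 to 45.6 CPM in Dp16_2xIFNRs. The groups stood apart by a log2 difference of -0.56 (SE 0.049, adjusted p = 5.2e-06), a ratio of 0.676 (0.630 to 0.726). Il10rb was the least abundant of the 4, at 8.42, 9.22 and 11.6 CPM (lowest, median, highest) in Dp16 and 5.94, 6.56 and 6.93 CPM in Dp16_2xIFNRs. Its groups did not overlap either, and its log2 difference was -0.54 (SE 0.0865, adjusted p = 0.0194), a ratio of 0.686 (0.605 to 0.777). The intervals of all 4 receptors included 0.667 and excluded 1. In WT the medians were 14.6 CPM for Ifnar2, 6.66 CPM for Il10rb, 43.5 CPM for Ifnar1 and 39.6 CPM for Ifngr2, and the log2 differences of Dp16_2xIFNRs from WT were -0.01, -0.05, 0.04 and 0.06 in that order.

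Per length of transcript, in the authors' RPKM, the 4 receptors fell into a pair at a higher and a pair at a lower level. Dp16 means were 16.7 ± 0.79 RPKM for Ifngr2, 16.5 ± 0.308 for Ifnar1, 6.89 ± 0.271 for Ifnar2 and 5.12 ± 0.562 for Il10rb (SD, n = 6). In Dp16_2xIFNRs the same genes were at 11.3 ± 0.865, 11.7 ± 0.345, 4.65 ± 0.219 and 3.53 ± 0.207 RPKM. Ifngr2 and Ifnar1 differed by less than the larger of their SDs in both groups, and Ifnar2 stood above Il10rb by more than their SDs in both.

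The sample identifiers of the labels hold a number that libraries of different groups share, and 3 such numbers occur in both groups. Within these 3 pairs the log2 ratio of Dp16_2xIFNRs to Dp16 was -0.57 to -0.50 for Ifnar1, -0.62 to -0.49 for Ifnar2, -0.56 to -0.52 for Ifngr2 and -0.81 to -0.58 for Il10rb. With the identifier number as a block, which leaves 4 residual degrees of freedom, edgeR called 2 receptors, Ifnar1 and Ifngr2, each at an adjusted p of 0.0123. Ifnar2 was then at -0.57 (adjusted p = 0.305) and Il10rb at -0.66 (adjusted p = 0.267). Il10rb was also no longer called after removal of any single one of 8 libraries, which were Dp16 replicates 1, 4 and 5 and Dp16_2xIFNRs replicates 1 to 5, and its adjusted p was highest, 0.0835, without Dp16_2xIFNRs replicate 2.

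**Figure D1:**
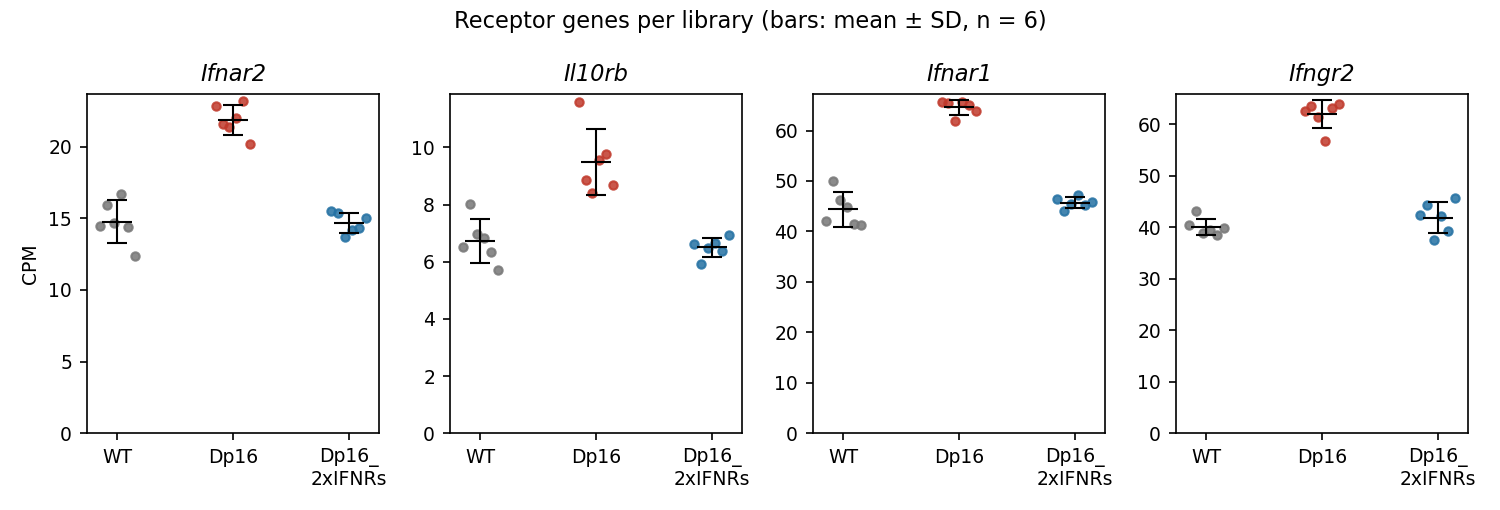
CPM (vertical axes, from 0) of the 4 receptor genes in each of the 18 libraries by genotype, with the mean and SD of each group of 6. For every receptor all 6 Dp16 points lie above all 6 Dp16_2xIFNRs points, as for Ifnar1, whose lowest Dp16 library is at 61.9 CPM and whose highest Dp16_2xIFNRs library is at 47.2 CPM.

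Most genes beside the receptor cluster did not share the drop. On the GRCm38 build the 4 receptors span chr16:91372783-91565623, which is 192841 bp, all on the forward strand. Tmem50b, a membrane protein gene whose start lies 8880 bp beyond Ifngr2, had a lowest, median and highest level of 102, 108 and 118 CPM in Dp16 and 107, 109 and 118 CPM in Dp16_2xIFNRs. The groups overlapped almost entirely, with a log2 difference of 0.03 (SE 0.0435) and a ratio of 1.02 (0.962 to 1.09), while the WT median was 71.4 CPM. On the same side Gart, an enzyme of purine synthesis, was at 0.03 (SE 0.0389) and Son, a splicing cofactor, at 0.01 (SE 0.0559) on the log2 scale. On the other side, 100850 bp away, Olig1, a transcription factor of the oligodendrocyte lineage, was at -0.03 (SE 0.0798), and its neighbour Olig2 was at 0.05 (SE 0.112). None of the 6 nearest tested genes on each side was called. Their intervals excluded a fall to 0.667 except for Gm49614, at -0.31 (SE 0.311), and 4932438H23Rik, at -0.42 (SE 0.198), both before the cluster.

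One further gene model inside the cluster was tested. A930006K02Rik, a long noncoding RNA, had 17 to 45 counts per library in the 12 libraries and stood at -0.57 on the log2 scale (SE 0.25, adjusted p = 1), a ratio of 0.673 (0.469 to 0.967). Its groups overlapped, with 0.334 to 0.839 CPM in Dp16 and 0.293 to 0.601 CPM in Dp16_2xIFNRs, and it was not called. In the rest of the segment, 1 of 110 tested genes had an unadjusted p under 0.05. This was the neighbour 4932438H23Rik (adjusted p = 1), 277661 bp from the cluster, with medians of 1.47 CPM in Dp16 and 1.17 CPM in Dp16_2xIFNRs and overlapping groups.

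The rest of the segment, taken from Lipi to Zbtb21, kept the level of the duplication in both groups. Of its 110 tested genes, 55 had estimates above 0 and 55 below, with a median log2 difference of -0.00037, and none was called by edgeR, DESeq2 or limma-voom. In each library, the median over these genes relative to the WT mean (log2) was 0.561 ± 0.0199 for Dp16 and 0.55 ± 0.0178 for Dp16_2xIFNRs (SD, n = 6). The same measure over the 4 receptors was 0.559 ± 0.0553 in Dp16 and 0.0141 ± 0.0537 in Dp16_2xIFNRs. Among well-studied genes of the segment, App, the amyloid precursor, had medians of 2755 and 2854 CPM in Dp16 and Dp16_2xIFNRs and a ratio of 1.02 (0.948 to 1.11). Dyrk1a, a protein kinase, was at a ratio of 1.01 (0.942 to 1.08), Sod1, a superoxide dismutase, at 0.987 (0.920 to 1.06), and Rcan1, an inhibitor of calcineurin, at 0.963 (0.906 to 1.02). Mx1, an interferon-induced antiviral gene inside the segment, was scarce, with medians of 0.549 CPM in Dp16 and 0.489 CPM in Dp16_2xIFNRs and a wide interval of 0.582 to 1.52. The point lowest on the plot of the segment, named after its value was seen, is the chloride channel gene Clic6 at -1.10 (SE 0.538, adjusted p = 1), with 6.88 ± 6.59 CPM in Dp16 and 3.32 ± 1.73 CPM in Dp16_2xIFNRs.

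**Figure D2:**
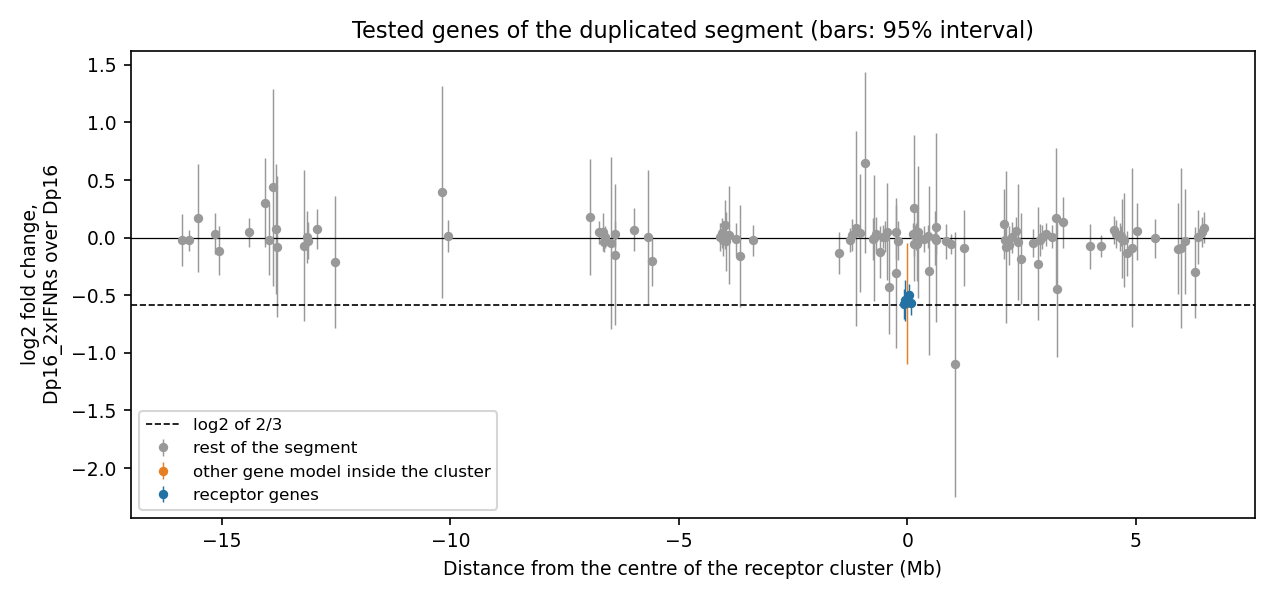
Log2 difference between Dp16_2xIFNRs and Dp16 (vertical axis, with 95% intervals) for each tested gene of the duplicated segment, by distance from the centre of the receptor cluster in megabases (horizontal axis). The 4 receptors lie near the dashed line at log2 of 2/3, between -0.58 and -0.50, and the 110 genes of the rest of the segment scatter around 0 with a median of -0.00037.

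Outside the receptors no gene was called. Of the other 18713 genes, edgeR called 0 higher and 0 lower, and 406 (2.17%) had an unadjusted p under 0.05, 149 higher and 257 lower. DESeq2 and limma-voom also called 0, with 420 and 403 genes at an unadjusted p under 0.05. The median log2 difference over all genes was 0.00, and 95% of genes lay between -0.41 and 0.33.

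The intervals state how large a change could have been present. For 11098 genes (59.3%) the 95% interval lay within a factor of 5/4 in both directions, for 14546 (77.7%) within 1.5-fold and for 17453 (93.2%) within 2-fold. An equivalence test adjusted over all genes placed 11339, 15113 and 17926 genes within the same 3 bounds. A fall to 0.667, the size of the receptors' own change, was outside the interval of 16013 genes (85.6%).

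Intervals were narrower at higher abundance. Among 2231 genes over 100 CPM the median bound, the larger end of the interval as a fold, was 1.11-fold, and among 7710 genes at 10 to 100 CPM it was 1.13-fold, with 98.4% of the latter within 1.5-fold. At 1 to 10 CPM (4633 genes) the median bound was 1.28-fold and 87.2% lay within 1.5-fold. Below 1 CPM (4143 genes) the median bound was 1.75-fold and 17.2% lay within 1.5-fold, and a fall to 0.667 was excluded for 46.3%.

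**Figure D3:**
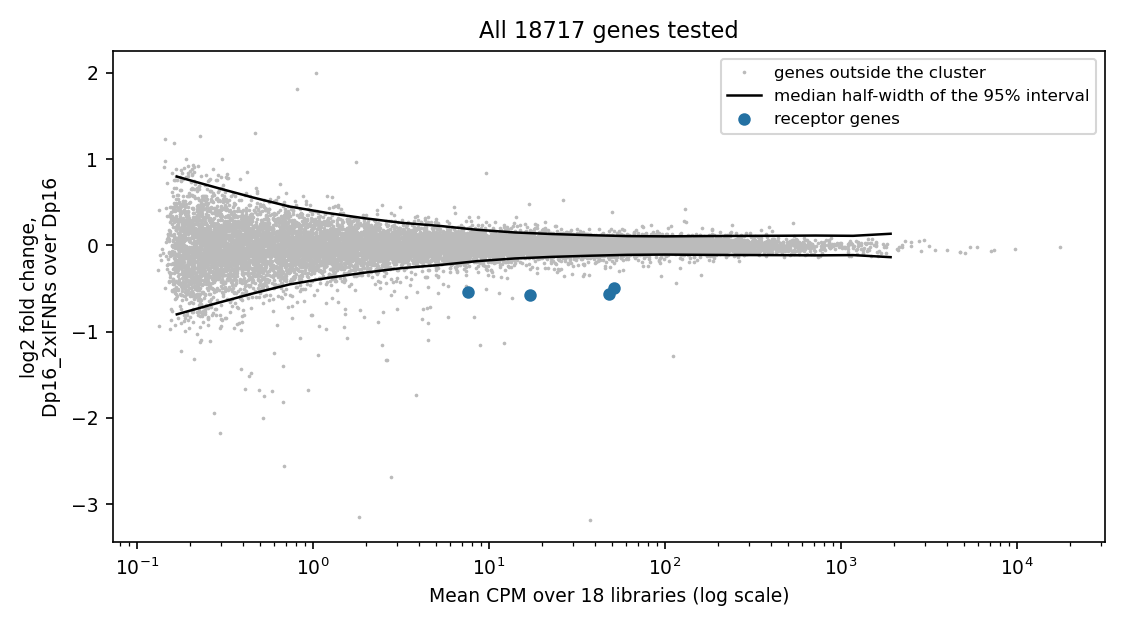
Log2 difference between Dp16_2xIFNRs and Dp16 (vertical axis) against mean CPM over the 18 libraries (horizontal axis, log scale) for all 18717 genes tested, with lines at the median half-width of the 95% interval. The 4 receptor genes lie below the band, and the band narrows from low to high abundance.

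The receptors act with ligands, partner chains and JAK-STAT proteins, and no gene of these kinds that entered the test was called. None of 16 interferon and IL-10 family ligands reached the filter: 8 had no count in any of the 12 libraries, and the highest count of a ligand in 1 library was 17. Ifngr1, the ligand-binding partner of IFNGR2, had medians of 15.8 CPM in both groups and a ratio of 1.03 (0.927 to 1.14). Il10ra, the partner of IL-10RB, was at 6.09 and 6.61 CPM with a ratio of 1.04 (0.882 to 1.23). Of 7 partner chains listed, 5 were tested, with log2 differences of -0.38 to 0.39 and a median bound of 1.84-fold. Only 2 of the 5 had intervals within 1.5-fold. A fall as large as the receptors' own was outside the interval of 3 of the 5. Of 12 JAK-STAT and ISGF3 genes, all had intervals within 1.5-fold, beside 77.7% of all genes tested, and their median log2 difference was 0.01. Jak1, one of the JAK kinases, had medians of 182 CPM in Dp16 and 188 CPM in Dp16_2xIFNRs. Tyk2, the JAK kinase bound to IFNAR1, had medians of 16.8 and 16.3 CPM.

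Stat2 and Irf9 encode proteins of ISGF3, the complex that carries the type I signal to DNA, and both had estimates within 0.01 of 0 on the log2 scale. Stat2 had medians of 25.6 and 24.9 CPM and an interval of 0.880 to 1.14, and Irf9 medians of 9.74 and 9.45 CPM and an interval of 0.849 to 1.19. All 17 feedback regulators had intervals within 1.5-fold, beside 77.7% of all genes tested. Among them Usp18, which blocks IFNAR2 signalling, was at a log2 difference of 0.13 (SE 0.192). Socs1, an inhibitor of JAK kinases, was at -0.18 (SE 0.17) and Socs3, an inhibitor of STAT3 signalling, at -0.13 (SE 0.166). Of 22 nucleic acid sensors and interferon regulatory factors, 7 had estimates above 0 and 15 below, with a median of -0.04. Irf7, the amplifier of type I interferon production, was at -0.12 (SE 0.2).

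Interferon-stimulated genes are read from short promoter elements that ISGF3 and IRF proteins bind, and the windows below show what those letters look like upstream of 6 genes of the response. The motif searched was GAAA, any 2 bases and GAAA again, on both strands, in the 250 bases before the start in RefSeq promoters of the GRCm38.p6 build. Capitals mark the first match in each promoter, and any further match in a window is left in lower case. The motif reads TTTC, any 2 bases and TTTC where it lies on the opposite strand, and each window is written 5′ to 3′ on the strand of its gene.

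Stat2, chr10:128270251-128270310, forward strand: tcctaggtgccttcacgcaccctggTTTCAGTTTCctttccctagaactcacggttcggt
Isg15, chr4:156200862-156200921, reverse strand: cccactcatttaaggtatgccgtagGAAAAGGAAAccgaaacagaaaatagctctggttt
Ifit1, chr19:34640760-34640819, forward strand: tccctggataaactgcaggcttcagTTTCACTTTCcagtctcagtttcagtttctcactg
Ifit3, chr19:34583348-34583407, forward strand: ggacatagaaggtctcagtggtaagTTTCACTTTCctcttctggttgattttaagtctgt
Rsad2, chr12:26456538-26456597, reverse strand: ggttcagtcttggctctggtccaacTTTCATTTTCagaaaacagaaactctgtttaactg
Bst2, chr8:71537568-71537627, reverse strand: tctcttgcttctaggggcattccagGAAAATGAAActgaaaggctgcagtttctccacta

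Of 32851 promoters in the table, 2.98% held the motif, as did 406 of 13004 tested genes with a promoter (3.12%). Among type I interferon-stimulated genes it was 20 of 51 (39.2%). The 20 genes with the motif had a median log2 difference of -0.01 between Dp16_2xIFNRs and Dp16, and those without it had a median of 0.01. Of the 20, none was called and 16 were within 1.5-fold, beside 77.7% of all genes tested. A match describes the letters of the window only, and a promoter without one may hold other elements.

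Type I interferon-stimulated genes did not separate the groups. Of 63 tested, 37 had estimates above 0 and 26 below, with a median of 0.01 beside 0.00 for all genes, and none was called. A fall to 0.667 was outside the interval for 57 of the 63, and 52 had intervals within 1.5-fold, beside 85.6% and 77.7% of all genes tested. Relative to WT the median of the list was 0.26 in Dp16 and 0.24 in Dp16_2xIFNRs on the log2 scale, values that share the WT libraries. This excess is smaller than a fall to 0.667, so excluding that fall does not by itself exclude a return of a gene to its WT level. The per-library score, the mean log2 CPM of the list less the WT mean, covered 0.136 to 0.456 for Dp16 and 0.126 to 0.476 for Dp16_2xIFNRs, almost the same range. Within the 3 pairs of libraries that share an identifier number, the score of Dp16_2xIFNRs less that of Dp16 was -0.133, -0.0605 and 0.212. In bulk tissue fewer cells of a type and less RNA per cell cannot be told apart.

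Single genes show the same overlap. Isg15, a ubiquitin-like protein attached to other proteins during the response, ran from 1.35 through 1.66 to 2.15 CPM in Dp16 and from 1.34 through 1.68 to 2.14 CPM in Dp16_2xIFNRs, a ratio of 0.996 (0.799 to 1.24). Ifit1 binds foreign RNA, and Ifit3 belongs to the same antiviral family. Ifit3 ran from 5.91 through 8.15 to 9.64 CPM and from 6.56 through 7.29 to 10.9 CPM, a ratio of 1.00 (0.826 to 1.21), and Ifit1 was at a ratio of 1.18 (0.941 to 1.49), with medians of 3.41 and 3.91 CPM. Bst2, which tethers budding viruses to the cell, was at 2.83, 2.99 and 3.93 CPM in Dp16 and 2.24, 3.23 and 3.76 CPM in Dp16_2xIFNRs, a ratio of 0.961 (0.802 to 1.15). Rsad2, the antiviral enzyme viperin, had medians of 2.72 and 2.95 CPM and a ratio of 1.11 (0.887 to 1.38).

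Ifi27 and Lgals3bp were among the more abundant members named. Ifi27 ran from 16.3 through 18.9 to 20.3 CPM in Dp16 and from 15.6 through 18.2 to 19.6 CPM in Dp16_2xIFNRs, against 13.2 to 16 CPM in WT. Its ratio between the duplicated groups was 0.954 (0.864 to 1.05). Lgals3bp, a secreted glycoprotein, ran from 22.3 through 25 to 28.5 CPM and from 20.5 through 24.2 to 26.3 CPM, against 9.94 to 21.5 CPM in WT, with a ratio of 0.942 (0.806 to 1.10). Both genes were called higher than WT by edgeR, with adjusted p of 0.00597 and 0.0313 for Ifi27 and of 0.00181 and 0.00727 for Lgals3bp in Dp16 and Dp16_2xIFNRs respectively. In those comparisons 119 genes (0.636%) and 138 genes (0.737%) of all tested were called higher. Both counts include genes of the duplicated segment, such as App and Gart, whereas Ifi27 and Lgals3bp lie outside it.

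**Figure D4:**
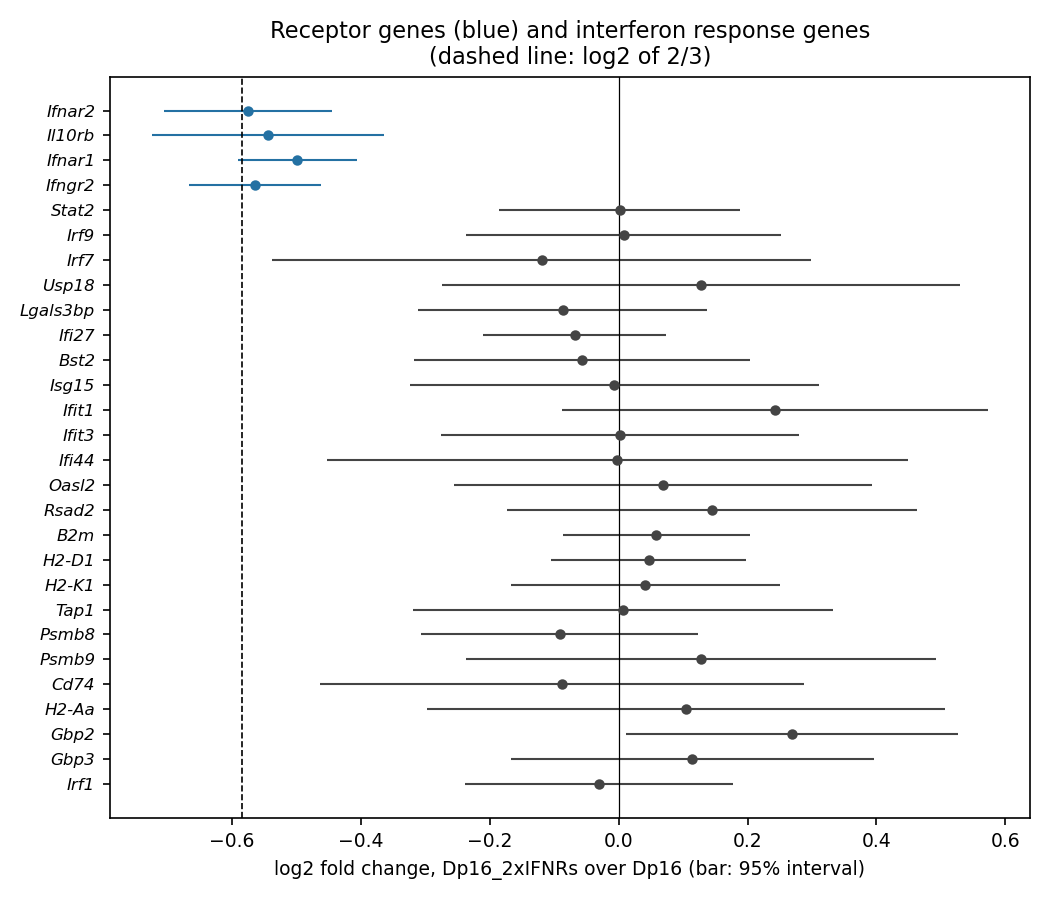
Log2 difference between Dp16_2xIFNRs and Dp16 with its 95% interval (horizontal axis) for the 4 receptor genes and 24 JAK-STAT and interferon response genes. The receptors lie near the dashed line at log2 of 2/3, between -0.58 and -0.50, whereas intervals of the response genes cover 0, apart from Gbp2 at 0.27.

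Antigen presentation genes, the other arm of the interferon response, were likewise uncalled. Of 22 MHC class I and peptide loading genes, 14 had estimates above 0 and 8 below (median 0.02). B2m, the light chain of MHC class I, ran from 95.7 through 104 to 111 CPM in Dp16 and from 101 through 106 to 117 CPM in Dp16_2xIFNRs, a ratio of 1.04 (0.942 to 1.15). The heavy chains H2-D1 and H2-K1 were at ratios of 1.03 (0.930 to 1.15) and 1.03 (0.890 to 1.19), though reads of these similar genes may be split between them. Of 10 MHC class II genes, which interferon gamma induces in myeloid cells, 3 were above 0 and 7 below, with a median of -0.13. Cd74, the invariant chain, ran from 5.52 through 7.91 to 10.9 CPM in Dp16 and from 6.35 through 7.40 to 9.05 CPM in Dp16_2xIFNRs, a ratio of 0.940 (0.725 to 1.22).

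Of 17 GTPases induced by interferon gamma, 12 had estimates above 0 and 5 below, with a median of 0.11. Gbp2, which attacks the vacuoles of intracellular pathogens, ran from 3.67 through 4.82 to 6.02 CPM in Dp16 and from 4.50 through 5.73 to 6.70 CPM in Dp16_2xIFNRs. Its groups overlapped, and its log2 difference of 0.27 (SE 0.123, adjusted p = 1) put the higher level in the group with fewer receptor copies. Irf1, the transcription factor that interferon gamma induces first, was at -0.03 (SE 0.0998), with medians of 5.70 and 5.63 CPM.

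Over these 4 interferon response lists together, 112 genes were tested and none was called by edgeR. At an unadjusted p under 0.05 there were 3 (2.68%, beside 2.17% of all genes outside the receptors). These were Gbp2, Oas1c, an oligoadenylate synthetase family member, at -0.31 (SE 0.115), and H2-DMa, which loads peptides on MHC class II, at -0.19 (SE 0.0681), each with an adjusted p of 1. A fall to 0.667 was excluded for 97 of the 112 (86.6%, beside 85.6% of all genes outside the receptors). It was excluded for 84 of the 87 with a mean of at least 1 CPM and for all 25 with at least 10 CPM. The 15 genes for which it was not excluded had means of 0.173 to 2.19 CPM. Relative to WT the median log2 difference of the 112 genes was 0.23 in Dp16, which is smaller than such a fall. A return to the WT level is therefore not excluded by these counts.

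Signalling downstream of IL-10RB and the immune cells of the cortex held no called gene either. Of 12 genes of the IL-10 and STAT3 response, 6 were above 0 and 6 below, with a median of 0.00. The 17 cytokine and NF-kB targets had a median of 0.01 and the 16 complement genes of 0.03. Intervals lay within 1.5-fold for 11 of these 17 and 12 of these 16. C3, the central complement component, had 0.549 to 1.51 CPM in the Dp16 libraries and 0.518 to 2.07 CPM in the Dp16_2xIFNRs libraries, with a ratio of 1.14 (0.780 to 1.66). Among 18 homeostatic microglia markers, 5 were above 0 and 13 below with a median of -0.04. All 18 had intervals within 1.5-fold, beside 77.7% of all genes tested. Their summed level was 1249 to 1614 CPM in Dp16 and 1346 to 1677 CPM in Dp16_2xIFNRs.

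Border macrophage markers, from the meninges and vessels, summed to 12.6 to 17.6 CPM in Dp16 and 11.3 to 16.9 CPM in Dp16_2xIFNRs, and white blood cell markers to 46.3 to 61.6 and 48.8 to 66.9 CPM. No marker of either list was at 0 in all 12 libraries. The sum for white blood cells is over 19 markers, of which only 10 entered the test. Of these 10, 3 had intervals within 1.5-fold, beside 77.7% of all genes tested, and the median bound was 1.89-fold. Of 12 border macrophage markers tested, 6 had estimates above 0 and 6 below, with a median of 0.01. Intervals lay within 1.5-fold for 7 of the 12. The lowest of these estimates was that of Folr2, a folate receptor of border macrophages, at -0.58 (SE 0.241, adjusted p = 1). Folr2 had 0.444 to 0.667 CPM in Dp16 and 0.259 to 0.513 CPM in Dp16_2xIFNRs. Tlr7, an endosomal sensor of single-stranded RNA, was at -0.33 (SE 0.125, adjusted p = 1).

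**Figure D5:**
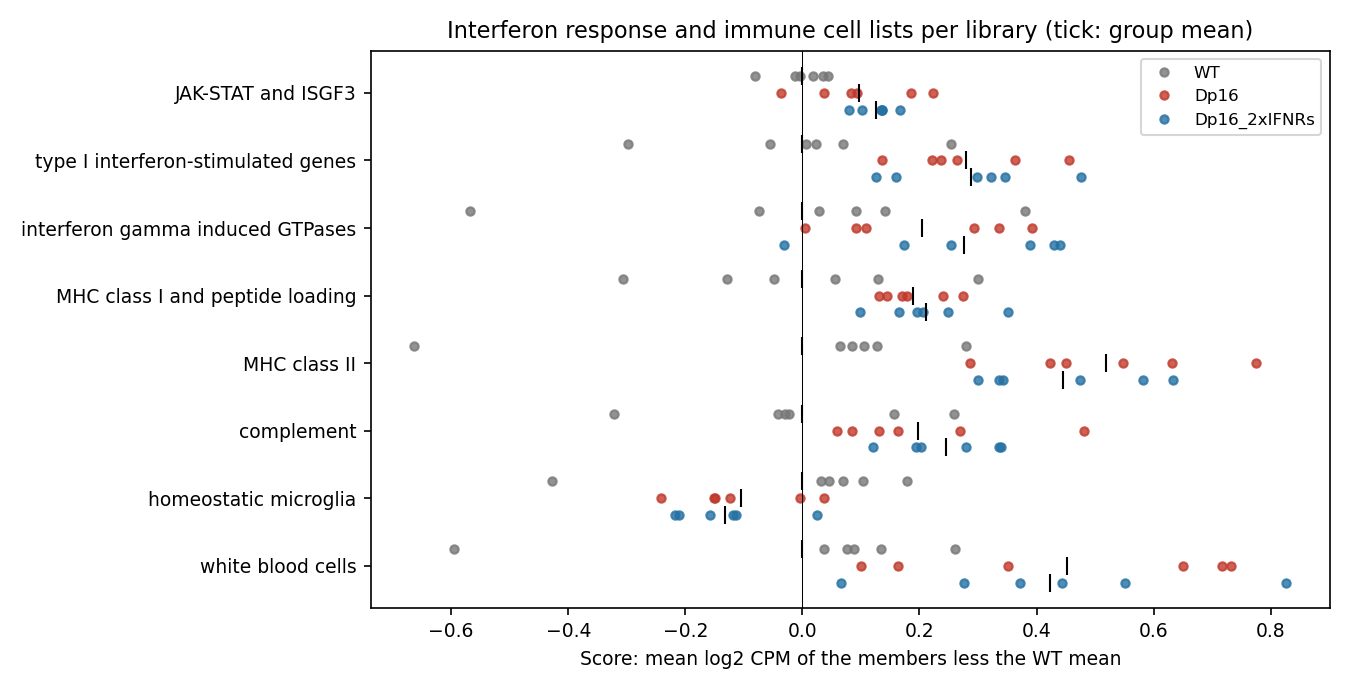
Per-library score (horizontal axis: mean log2 CPM of a list's tested members less the WT mean) for 8 lists of interferon response and immune cell genes, 1 point per library and 1 tick per group mean. Dp16 and Dp16_2xIFNRs points overlap in every list shown, as for type I interferon-stimulated genes at 0.136 to 0.456 and 0.126 to 0.476.

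Lists of neurons, glia and housekeeping genes held no called gene. Over all 36 lists other than the receptors, edgeR called 0 of 612 genes, and 13 (2.12%) had an unadjusted p under 0.05. In 4 lists nearly all of the estimates lay on one side of 0. All 16 oligodendrocyte and myelin genes had estimates above 0 (median 0.10), with a summed level of 5589 to 7407 CPM in Dp16 and 6127 to 6804 CPM in Dp16_2xIFNRs, but the median was -0.0066 with the identifier number as a block. Of 18 immediate early genes, which neuronal activity induces, 17 were above 0 (median 0.16), with scores of -0.740 to 0.181 in Dp16 and -0.732 to 0.346 in Dp16_2xIFNRs, and here too the block reversed the median, to -0.21. Npas4, an activity-induced transcription factor, ran from 14.6 through 18.9 to 32.1 CPM in Dp16 and from 22.1 through 28.7 to 42.4 CPM in Dp16_2xIFNRs, a log2 difference of 0.53 (SE 0.307, adjusted p = 1). Of 38 cytosolic ribosomal protein genes 37 were below 0 (median -0.04), and of 15 heat shock genes 14 were above 0 (median 0.06). Genes of such a list rise and fall together between libraries, so their shared side is no count of independent observations, and the scores of both groups overlapped in each.

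The 17 excitatory neuron markers had a median of 0.01, the 22 GABAergic neuron markers of -0.05, the 16 homeostatic astrocyte markers of -0.02 and the 30 respiratory chain genes of 0.00. Gfap, the filament protein of astrocytes, had medians of 181 CPM in Dp16 and 168 CPM in Dp16_2xIFNRs and a ratio of 0.939 (0.834 to 1.06). Lcn2, a secreted protein of reactive astrocytes, had medians of 0.520 and 0.561 CPM, against 0.0997 CPM in WT. Its ratio between the duplicated groups was 0.910 (0.509 to 1.63). It was scarce, with 4 to 21 counts per library in WT, 9 to 64 in Dp16 and 22 to 44 in Dp16_2xIFNRs. Of 21 reactive astrocyte genes tested, 12 had estimates above 0 and 9 below, with a median of 0.05.

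Some of the lowest estimates outside the receptors rested on 1 library. Ttr, the transthyretin of choroid plexus, was at -3.18 with 351 CPM in Dp16 replicate 3 and 15.2 CPM or less in the other 5 Dp16 libraries, and at -0.15 without that library. Choroid plexus and ependyma markers, which come from tissue lining the ventricles, summed to 252 to 781 CPM in Dp16 and 268 to 312 CPM in Dp16_2xIFNRs. The muscle genes Atp2a1 and Myh4 were at -3.14 and -2.69 with 27.8 and 38.3 CPM in Dp16 replicate 2, and at -0.14 and -0.09 without it. Lrrc17 was at -1.73 with 52.2 CPM in Dp16 replicate 6 and at 1.29 without it, when the 11.5 CPM of Dp16_2xIFNRs replicate 2 remained. On the other side, mt-Atp8, a mitochondrial gene, was at 0.84 with 40.8 CPM in Dp16_2xIFNRs replicate 1 and at -0.05 without it. None of these genes was called with or without the library named.

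The 10 genes with the smallest p outside the receptors were a mix of small differences in well-expressed genes and larger ones in scarce genes, none of them called. Msl3, a chromatin protein gene on the X chromosome, ran from 15.2 through 16.7 to 17.3 CPM in Dp16 and from 17.8 through 18.5 to 19.0 CPM in Dp16_2xIFNRs, with no overlap. Its log2 difference was 0.16 (SE 0.0453, adjusted p = 1), and its WT median was 18.4 CPM. Pigg, an enzyme of the GPI anchor pathway, was at 0.17 (SE 0.0495) and Fancc, a DNA repair gene, at -0.23 (SE 0.0703), each with an adjusted p of 1. The smallest p of all belonged to Gm25857, at -0.81 (SE 0.207, adjusted p = 1), with 0.353 to 0.646 CPM in Dp16 and 0.212 to 0.328 CPM in Dp16_2xIFNRs.

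Both sexes gave the receptor change. Between females the log2 difference was -0.54 for Ifnar2, -0.51 for Il10rb, -0.51 for Ifnar1 and -0.55 for Ifngr2, and between males it was -0.61, -0.57, -0.48 and -0.57, with unadjusted p of 0.553 to 0.84 for the difference between sexes (edgeR interaction term). Over all genes edgeR called no difference between sexes, with 350 genes (1.87%) at an unadjusted p under 0.05. DESeq2 called 1, Cbs, named after its values were seen, the enzyme that makes cystathionine from homocysteine. Cbs lies on chromosome 17, outside the segment, and its 3 Dp16 females were at 21.1 to 25 CPM and its 3 Dp16_2xIFNRs females at 14.9 to 17.6 CPM. Males overlapped, at 19.1 to 20.05 and 19.7 to 21.5 CPM. Its log2 difference was -0.52 (SE 0.0834) between females and 0.09 (SE 0.0831) between males, with an adjusted p of 0.0297 in DESeq2 and of 1.00 in edgeR, where it had the smallest unadjusted p of all genes.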

How the data were processed

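Polyadenylated RNA of mouse cortex was made into strand-specific libraries and paired-end sequenced, per the labels' protocols. The submitters' processing notes name the build GRCm38 and the tools HISAT2 2.1.0, SAMtools 1.5 and HTSeq 0.6.1. The strand setting used for counting, and how multiply mapping reads were handled, were not given in the sources used here, so values of overlapping, antisense and near-identical genes are uncertain. The tables deposited by the authors are 1 of raw counts and 1 of RPKM values. In all 31735 genes checked, the deposited RPKM equalled the count over library total and one gene length within a relative tolerance of 1e-06.

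Counts of all 18 libraries were filtered (filterByExpr, minimum count 10), scaled by TMM and fitted with genotype and sex in edgeR 4.0.16 (R 4.3.3), with 14 residual degrees of freedom and a biological coefficient of variation of 12.2%. Differences are Dp16_2xIFNRs less Dp16, called at a Benjamini-Hochberg adjusted p under 0.05, and 95% intervals come from the same fit. DESeq2 1.42.0 and limma 3.58.1 served as alternatives. The code was tested on simulated counts. Of the 55385 genes, 55144 were placed by GENCODE release M21, and promoters are from RefSeq (GRCm38.p6). The per-library score used a prior count of 2.

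The members and all 37 gene lists were chosen with earlier results of these data known. Genes named were the receptors, the other tested gene model in the cluster, 6 neighbours on each side, App, Sod1, Dyrk1a, Rcan1 and Mx1, the 10 smallest p, the 5 highest and 5 lowest estimates at a mean of at least 1 CPM, set members of the lists and the largest estimate of each list, of which a selection is printed.

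Libraries of the 2 groups that share an identifier number deviated together from their group means, with correlations over genes of 0.515, 0.433 and 0.210 for the 3 shared numbers. The labels do not say what the number marks.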

Additional observations from a re-analysis of the deposited data

Results flagged for a closer look

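In 110 groups of 6 libraries examined (levels of the receptors and their neighbours, list scores and segment medians), 7 held 1 library that stood apart from the other 5 by Dixon's criterion, whose critical ratio is 0.625. Chance marks about 1 in 20 such groups. Ifngr2 was at 56.7 CPM in Dp16 replicate 4 and at 61.4 to 64.0 CPM in the other Dp16 libraries. The same library had a score of 0.374 for nucleic acid sensors and IRFs (others 0.0314 to 0.153) and of 0.214 for the unfolded protein and integrated stress response (others 0.0254 to 0.0868). Dp16 replicate 1 had an oligodendrocyte score of 0.376 (others -0.120 to 0.0613), and Dp16 replicate 3 a choroid plexus and ependyma score of 1.45 (others -0.467 to 0.219). Dp16_2xIFNRs replicate 5 had the lowest scores of its group for excitatory cortical neurons, -0.142 (others -0.0590 to -0.0306), and for immediate early genes, -0.732 (others -0.0172 to 0.346).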

How the results depend on the processing

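Each value was recomputed under 13 alternatives in scaling, tool, filter, covariates and libraries, and without each of 18 libraries in turn. Of 4840 alternative values, 4803 kept their direction and side of the threshold or moved by less than the spread between libraries, and no called value changed sign. Calls outside the receptors stayed at 0 in every alternative. Genes outside the receptors with an unadjusted p under 0.05, 406 in the reported fit, numbered 261 with a filter at 1 CPM, 614 with age added, 611 with the identifier block and 706 without Dp16_2xIFNRs replicate 1, and made up 2.66% of 35126 genes with no filter, beside 2.17%.

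Il10rb lost its call without any 1 of 8 libraries (Dp16 replicates 1, 4 and 5, and Dp16_2xIFNRs replicates 1 to 5), at log2 differences of -0.58 to -0.48 over all 18 omissions. With the title's sample number as a replicate block it was at -0.54 (adjusted p = 0.0812). Those numbers paired the samples only in part, with correlations of 0.515, 0.433, 0.143, 0.354, -0.145 and -0.0536. Of 6 Dp16 libraries, 4 correlated best with their own number. The pairs at 0.515 and 0.433 also share an identifier number. With the identifier number as a block, 2 receptors were called, Ifnar2 was at -0.57, Il10rb at -0.66, and list medians moved to -0.18 (IL-10 and STAT3 response), -0.21 (immediate early genes) and -0.13 (proliferation and immature neurons), while that of oligodendrocytes and myelin went from 0.10 to -0.0066. The block changed no other call. DESeq2 called 1 gene for the difference between sexes. For the values that moved, the cause was not tested. At 4143 genes below 1 CPM the intervals were widest, with a median bound of 1.75-fold.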
